A study of Mus musculus with 6 samples.

Results

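The caseins are the main proteins of milk. In the mouse 5 genes encode them, Csn1s1 (alpha-S1-casein), Csn2 (beta-casein), Csn1s2a and Csn1s2b (the alpha-S2-like caseins, also called gamma and delta) and Csn3 (kappa-casein), and they lie together on chromosome 5. The array's platform annotation gave each of them 1 probe set that names no other gene, so 5 of the 12488 probe sets in the table are described here. All 5 passed the filter on dim signal.

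Alpha-S- and beta-caseins carry clusters of phosphoserine that bind calcium phosphate, and kappa-casein covers the surface of the casein micelle and keeps it in suspension. Secretory alveolar cells make casein RNA in pregnancy and lactation, when prolactin acts through its receptor, the kinase JAK2 and the transcription factor STAT5, together with glucocorticoids. Casein RNA is also present at lower levels in glands of virgin mice.

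RNA came from thoracic mammary glands of virgin F1 CF-1/FVB mice aged 16 weeks. The LH transgenic mice overexpress luteinizing hormone, the pituitary hormone that makes the gonads secrete sex steroids, and the wild type mice share their background and age. Each group had 3 arrays, and each array received RNA pooled from 3 mice, so 9 mice stood behind each group. The promoter that drives the transgene is not given in the labels used here, and pooling hides the spread between single mice. The values are MAS5 signals on a linear scale, with a median between 540.6 and 583.4 on every array.

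The sequences next to the starts of 3 of the genes were searched for short motifs. RefSeq entries of the GRCm38.p6 build were found for Csn1s1, Csn2 and Csn1s2a. The 250 bases before each start are printed 5′ to 3′, and capitals mark a match to TTCNNNGAA, the core to which STAT5 binds. The stretches are chr5:87665958-87666207 on the plus strand for Csn1s1, chr5:87699426-87699675 on the minus strand for Csn2, and chr5:87774200-87774449 on the plus strand for Csn1s2a.
Csn1s1: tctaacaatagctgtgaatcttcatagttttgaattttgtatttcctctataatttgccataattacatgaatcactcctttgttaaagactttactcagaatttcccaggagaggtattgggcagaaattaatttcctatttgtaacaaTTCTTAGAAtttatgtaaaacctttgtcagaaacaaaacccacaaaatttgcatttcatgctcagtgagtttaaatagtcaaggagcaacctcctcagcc
Csn2: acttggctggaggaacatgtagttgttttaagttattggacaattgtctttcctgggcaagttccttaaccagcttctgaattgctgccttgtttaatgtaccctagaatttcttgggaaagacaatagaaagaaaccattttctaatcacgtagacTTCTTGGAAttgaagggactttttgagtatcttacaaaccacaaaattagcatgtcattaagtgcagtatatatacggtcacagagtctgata
Csn1s2a: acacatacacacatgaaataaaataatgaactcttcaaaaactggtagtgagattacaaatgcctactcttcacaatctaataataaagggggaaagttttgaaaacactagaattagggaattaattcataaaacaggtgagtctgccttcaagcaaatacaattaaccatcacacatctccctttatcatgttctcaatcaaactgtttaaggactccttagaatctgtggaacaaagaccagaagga
The Csn1s1 match, TTCTTAGAA, lay at bases -100 to -92 and the Csn2 match, TTCTTGGAA, at bases -93 to -85, counted back from the start. Csn1s2a held the same letters as Csn1s1, TTCTTAGAA, at bases 21 to 29 after its annotated start, outside the stretch printed. The letters TTCNNNGAA occur in 8.30% of the 32851 mouse promoter windows of 300 bases in the same table. Of the other motifs searched on both strands, TATATA was found in Csn2 only, as 2 overlapping matches between bases -26 and -19 (5.67% of windows). TGTTCT, to which the glucocorticoid receptor can bind, was found in Csn1s2a at bases -59 to -54 (19.0%). CCAAT was found in Csn1s1 and Csn2 (37.4%), and TTGCNNAA (10.8%) and TATAAA (13.6%) in none of the 3 windows. None of these matches overlapped a match to another motif. A match describes the letters only, and binding was not measured.

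All 5 casein genes had more signal in the LH transgenic glands than in the wild type glands on the deposited scale. Scaled to the bacterial controls of the arrays, only Csn1s2b was still called. The log2 differences of Csn1s1 (-0.13), Csn2 (0.20), Csn1s2a (0.26) and Csn3 (0.30) were then not called. For Csn1s2b that scaling gave an SE of 0.27, against 0.55 on the deposited scale, which does not measure the spread between its pools. On the deposited scale Csn1s2b had 8.55 times the wild type mean, Csn3 1.95, Csn1s2a 1.91, Csn2 1.84 and Csn1s1 1.47. On the log2 scale all 5 differences passed limma's test at a Benjamini-Hochberg adjusted p under 0.05, fitted over 7453 probe sets. Of all probe sets tested, 10.5% passed it as higher in LH transgenic glands. For all 5 caseins the lowest LH transgenic array lay above the highest wild type array, which held for 20.6% of all probe sets tested. The 2-sided exact permutation p was 0.1 for each, the smallest that 3 arrays against 3 can give. The glands were measured whole, so more casein-making cells and more casein RNA per cell cannot be told apart.

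**Figure D1:**
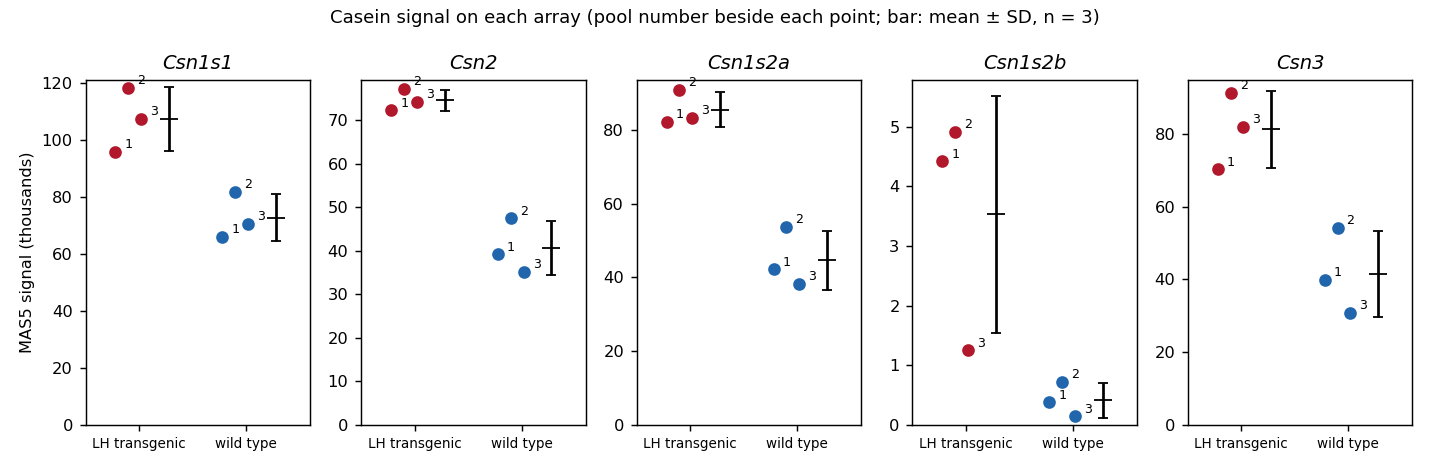
MAS5 signal (linear axis from 0, in the multiples its label gives) of the 5 casein probe sets on each of the 3 LH transgenic and 3 wild type arrays, with the pool number beside each point and the mean ± SD at its right. In every panel the 3 LH transgenic points lie above the 3 wild type points, and LH transgenic pool 3 stands low for Csn1s2b with a signal of 1250.0.

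Csn1s1, the alpha-S1-casein gene, had signals of 95870.1, 118248.1 and 107452.2 in LH transgenic pools 1 to 3, against 65904.4, 81837.2 and 70461.7 in wild type pools 1 to 3. The lowest LH transgenic pool was 1.17 times the highest wild type pool, the narrowest gap among the caseins. Its mean was 107190 ± 11191 in LH transgenic and 72734 ± 8206 in wild type glands (SD, n = 3 each). The log2 difference was 0.56 (SE 0.12, 95% interval 0.28 to 0.84, limma adjusted p 0.0117). Csn1s1 was the brightest probe set on every array except that of wild type pool 3, where its rank was 3. After quantile normalization, which gives the brightest probe set of every array the same value, its difference was 0.06 (adjusted p 0.654). Under the same setting Csn2 stood at 0.50, Csn1s2a at 0.48 and Csn3 at 0.58 (adjusted p 0.00936, 0.0149 and 0.0439), all still called, and Csn1s2b at 2.82.

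Csn2, the beta-casein gene, had signals of 72221.0, 77095.5 and 74201.5 in LH transgenic pools, against 39163.0, 47378.9 and 35119.5 in wild type pools. The 3 LH transgenic pools were close together, with an SD of 3.29% of their mean, and the wild type pools were wider apart, at 15.4%. The means were 74506 ± 2452 in LH transgenic and 40554 ± 6247 in wild type glands. The log2 difference was 0.89 (SE 0.13, 95% interval 0.60 to 1.17, limma adjusted p 0.00163).

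Csn1s2a, which encodes a calcium-sensitive alpha-S2-like casein, had signals of 82324.5, 90974.5 and 83381.8 in LH transgenic pools, against 42218.8, 53689.5 and 38263.3 in wild type pools. The lowest LH transgenic pool was 1.53 times the highest wild type pool, where Csn2 had 1.52. The means were 85560 ± 4719 in LH transgenic and 44724 ± 8012 in wild type glands. The log2 difference was 0.95 (SE 0.14, 95% interval 0.64 to 1.25, limma adjusted p 0.00169).

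Csn1s2b, the second alpha-S2-like casein gene, had signals of 4422.3, 4918.0 and 1250.0 in LH transgenic pools, against 379.8, 719.2 and 139.6 in wild type pools. It varied most within groups, with the highest pool 3.93 times the lowest in LH transgenic and 5.15 times in wild type glands. LH transgenic pool 3 was low, yet still 1.74 times the highest wild type pool. The means were 3530 ± 1990 in LH transgenic and 413 ± 291 in wild type glands. The log2 difference was 2.85 (SE 0.55, 95% interval 1.62 to 4.07, limma adjusted p 0.0063), the sixth largest increase of the 7453 probe sets. Without LH transgenic pool 3 it was 3.46, and without wild type pool 3 it was 2.36.

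LH transgenic pool 3 also differed from the other LH transgenic pools in skeletal muscle markers. Their summed signal over 19 genes was 26768, 31133 and 106258 in LH transgenic pools 1 to 3, against 117892 to 133841 in wild type pools. With the muscle level as a covariate the Csn1s2b difference was 1.63 (SE 0.67) and its call was lost (adjusted p 0.164).

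Csn3, the kappa-casein gene, had signals of 70283.5, 91382.0 and 82042.7 in LH transgenic pools, against 39882.0, 54170.2 and 30734.3 in wild type pools. The groups did not overlap, and the wild type pools spread 1.76-fold. The means were 81236 ± 10572 in LH transgenic and 41596 ± 11812 in wild type glands. The log2 difference was 0.99 (SE 0.19, 95% interval 0.56 to 1.43, limma adjusted p 0.00663). With the muscle level as a covariate it was 1.11 and not called (adjusted p 0.0607).

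Leaving out any single array kept all 5 calls, with log2 differences of 0.49 to 0.65 for Csn1s1, 0.789 to 1.004 for Csn2, 0.84 to 1.09 for Csn1s2a, 2.36 to 3.46 for Csn1s2b and 0.80 to 1.20 for Csn3. The scale of the arrays mattered more. The arrays had nearly the same trimmed mean (1500.8 or 1500.9), a mean that leaves out the brightest and dimmest values. The 9 bacterial hybridisation controls were brighter on the LH transgenic arrays (levels of 5219 to 7147) than on the wild type arrays (3359 to 4433). With each array divided by that level, the median difference of all tested probe sets was -0.62. Csn1s1 then stood at -0.13, Csn2 at 0.20, Csn1s2a at 0.26 and Csn3 at 0.30, and none of these was called (adjusted p 0.497, 0.343, 0.202 and 0.137), while Csn1s2b stood at 2.24 and was. Relative to that median the caseins were higher by 0.49 (Csn1s1), 0.82 (Csn2), 0.88 (Csn1s2a), 2.86 (Csn1s2b) and 0.93 (Csn3). The SE of Csn1s2b was 0.27 under this scaling, against 0.55 as reported. Its limma adjusted p there, 6.23e-15, should not be read as a measure of the spread between its pools.

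**Figure D2:**
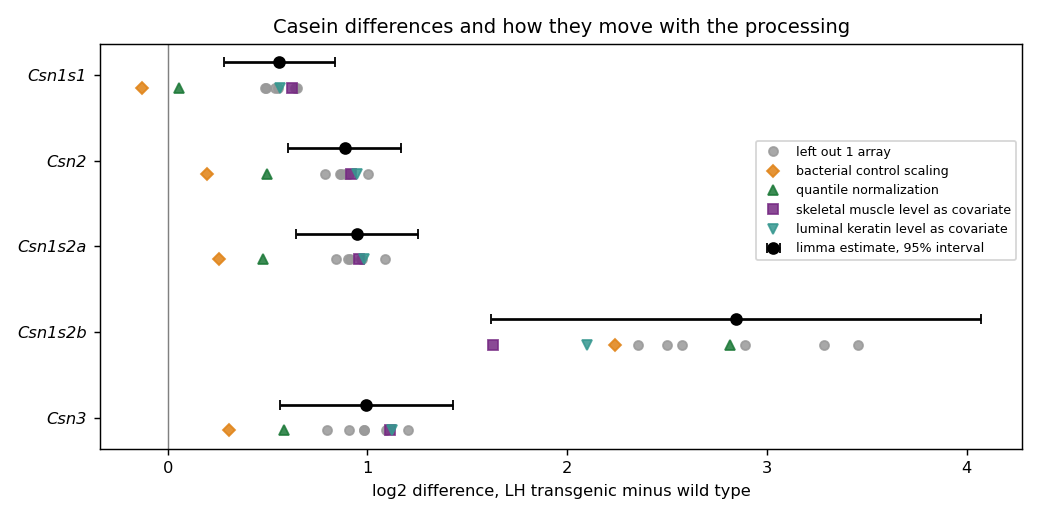
Log2 difference (LH transgenic minus wild type) of each casein, with its 95% interval in black and the values under other settings in colour below it. The 4 bright caseins lie near 1 or lower and move toward 0 with bacterial control scaling, where Csn1s1 falls to -0.13, while Csn1s2b stays at 1.63 or higher.

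The 4 bright caseins were at the top of the signal range. Csn2, Csn1s2a and Csn3 ranked between 6 and 21 of 12488 on the LH transgenic arrays, and between 20 and 99 on the wild type arrays. Signal ranks depend on each probe set's own response and are no measure of RNA abundance between genes. Whether the brightest probe sets were saturated was not tested, since the deposited signals carry no mark of it, so the folds of the 4 bright caseins are given as measured. Of the 50 probe sets with the highest mean signal, chosen after the data were seen, 28 were called higher and 0 lower, with a median log2 difference of 0.40. Over all probe sets tested 10.5% were called higher and 10.8% lower. The 50 included 4 caseins. Of these 50, 6 had a larger difference than Csn2, and the largest was that of Glycam1, a mucin-like milk protein gene, with 84770 ± 14855 in LH transgenic and 20747 ± 11956 in wild type glands (log2 2.16, limma adjusted p 0.00214). The summed signal of the 5 caseins was 1.21% to 1.38% of all signal on the LH transgenic arrays, against 0.684% to 0.914% on the wild type arrays.

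The log2 difference of Csn1s1 was the smallest of the 5 and that of Csn1s2b the largest. Each of the 10 pairs was compared by the log2 difference between the 2 genes on each array, with a permutation test that cannot go below 0.1 in this design. The log2 difference of Csn1s1 minus that of Csn2 was -0.33 (95% interval -0.60 to -0.05). It was -0.39 against Csn1s2a (-0.67 to -0.11), -2.29 against Csn1s2b (-4.47 to -0.10) and -0.43 against Csn3 (-0.95 to 0.08). The first 3 of these intervals, which are not adjusted for the number of pairs, were the only ones of the 10 that left out 0. In all 7 pairs with Csn1s1 or Csn1s2b the within-array differences of the groups did not overlap. The exact permutation p of each was 0.1, its smallest value, and 0.143 after adjustment over the 10 pairs. With the larger added constant of 325.5, the groups overlapped for Csn1s2b against Csn2, Csn1s2a and Csn3 (exact permutation p 0.2 for each). Csn2 minus Csn1s2a had the narrowest interval, -0.14 to 0.02 around -0.06 (permutation p 0.2). The intervals were wider for Csn2 against Csn3 (-0.11, -0.49 to 0.28, p 0.6) and Csn1s2a against Csn3 (-0.05, -0.39 to 0.29, p 0.7).

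Across the 6 arrays Csn2 and Csn1s2a had nearly the same profile. After each gene's mean was subtracted, their log2 values lay 0.043 apart (root mean square over the arrays), and Csn3 lay 0.124 from Csn1s2a. Csn1s2b lay 1.16 to 1.39 from each of the other caseins. Pool 2 had the highest signal of its group for all 5 caseins in LH transgenic (31.3% of tested probe sets) and in wild type glands (31.9%). Pool numbers are names only, and the labels do not link pools of the same number. Wild type pool 3 was lowest of its group for 4 of 5 caseins (35% of tested probe sets), and Csn1s1 was the exception.

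**Figure D3:**
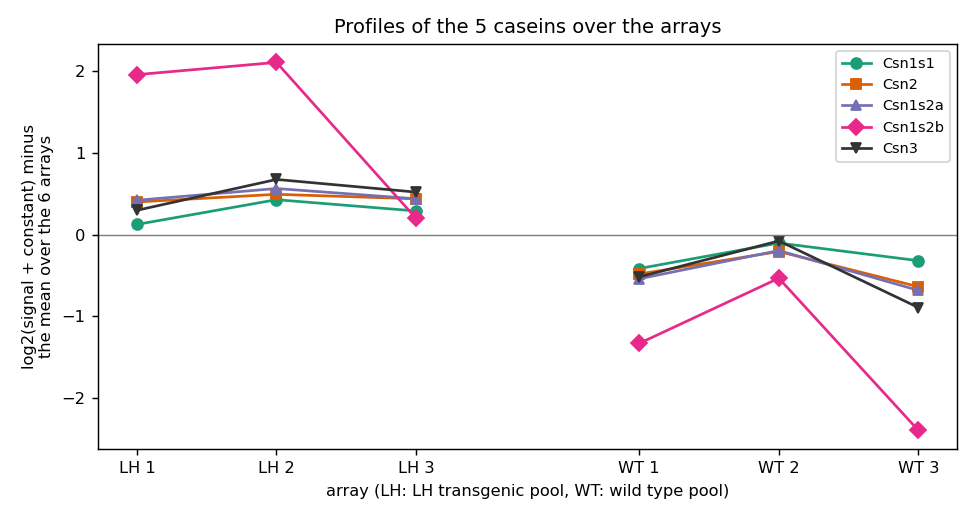
Log2(signal + 80) of each casein minus its mean over the 6 arrays, for LH transgenic pools (left) and wild type pools (right); lines join pools of a group only to guide the eye. Csn1s1, Csn2, Csn1s2a and Csn3 run close together, with pool 2 highest within each group, and Csn1s2b has the widest range, from -2.40 to 2.11.

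Genes outside the cluster whose profiles were nearest to a casein were found by the same distance. For Csn2 the nearest was Slc9a3r1, a scaffold protein of apical membranes (0.086), which was also nearest to Csn1s2a (0.097). It had signals of 7855.0, 8750.6 and 7131.8 in LH transgenic pools, against 4276.9, 5194.6 and 4039.3 in wild type pools. Commd9 (0.089) and Rnf145 (0.098) followed for Csn2, and Plet1 (0.1) and Wnt5b (0.101) for Csn1s2a. Csn3 was nearest to Slc41a1, a magnesium transporter gene (0.093), then S100a8 (0.124) and Kcnn4 (0.125). Csn1s1 was nearest to Zfp821 (0.030), Tcf7l2 (0.060) and Tln1 (0.061).

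For Csn1s2b the nearest genes lay further away than for the other caseins. This distance is not scaled, so it grows with a gene's own range, which was widest for Csn1s2b. The nearest was Fabp3, which binds fatty acids inside heart and milk-secreting cells, at a distance of 0.388. Its signals were 37299.1, 42062.3 and 23168.4 in LH transgenic pools, against 4326.8, 8492.4 and 1673.0 in wild type pools, so that pool 2 was highest and pool 3 lowest in each group, as for Csn1s2b. Saa3, a serum amyloid gene (0.429), and Qsox1, a sulfhydryl oxidase gene (0.601), came next.

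The keratins Krt8, Krt18 and Krt19 are made by luminal cells in general, not only by those that make milk. Their log2 differences lay between 0.04 and 0.52. Krt18 had 13650 ± 1931 in LH transgenic and 13208 ± 1081 in wild type glands (log2 difference 0.04, limma adjusted p 0.87), Krt8 15576 ± 2846 and 12806 ± 1655 (0.27, adjusted p 0.261), and Krt19 23674 ± 3765 and 16306 ± 707 (0.52, adjusted p 0.0237, and -0.16 under bacterial control scaling, called in 1 of the 6 fits without 1 array). Relative to the mean log2 of these 3 keratins on the same array, Csn1s2b was higher in LH transgenic than in wild type glands by 2.57, Csn3 by 0.72, Csn1s2a by 0.67, Csn2 by 0.61 and Csn1s1 by 0.28 (-0.17 after quantile normalization). Quantile normalization also lowered Csn3 to 0.36, Csn1s2a to 0.25 and Csn2 to 0.27, with permutation p of 0.4, 0.4 and 0.2, so that the groups then overlapped for these too. Before it, the groups did not overlap for Csn2, Csn1s2a and Csn1s2b (exact permutation p 0.1, 0.167 adjusted over the 5 caseins) and overlapped for Csn1s1 and Csn3 (p 0.2). Of the 14 luminal epithelial markers tested 4 rose and 2 fell, with a median log2 difference of 0.23 (-0.45 under bacterial control scaling, where 1 rose and 6 fell). All probe sets tested had a median of 0.02, and 10.8% of them were called lower. Ehf, an epithelial transcription factor (1.51), and Cldn3, a tight junction claudin (0.79, and 0.11 and not called under bacterial control scaling), rose, and Prom1 (-1.68) and Foxa1 (-1.23), which mark hormone-sensing luminal cells, fell. With the keratin level as a covariate Csn1s1 (0.56, adjusted p 0.0881) and Csn1s2b (2.10, adjusted p 0.0913) lost their calls.

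Markers of other cell types are read against the shares of all probe sets tested that were called, 10.5% higher and 10.8% lower. Of 12 adipocyte markers tested 9 fell and none rose, with a summed signal over 12 genes of 57754 to 63970 in LH transgenic and 127476 to 152684 in wild type glands. Retn (-2.02), Agt (-1.88), Slc2a4 (-1.81) and Cidec (-1.74) fell most. Of 10 endothelial markers 8 fell, and the summed signal was 15242 to 18201 in LH transgenic and 32961 to 38933 in wild type glands. Ramp2 (-1.33), Emcn (-1.31), Eng (-1.27) and Vwf (-1.12) fell most. Of 17 skeletal muscle markers 8 fell, led by Myh4 (-2.13), Atp2a1 (-2.10), Tnnt3 (-1.92) and Myl1 (-1.62), and 15 fell without LH transgenic pool 3 but 3 to 5 without any other array. Of 12 macrophage markers 5 rose, with Lyz2 (1.02), Mpeg1 (0.99), C1qa (0.95) and Ctss (0.94) the highest, and the median of the list was 0.51 (-0.17 under bacterial control scaling, where 0 rose, none of these 4 genes was called and 2 members fell). Of 6 B and T cell markers 1 rose (Blnk, 1.15), and none without wild type pool 1 or 3. Among 8 basal markers Acta2, also made by smooth muscle, rose (0.66, and -0.03 under bacterial control scaling) and Lgals7 fell (-1.57), and 2 rose without LH transgenic pool 3. The counts for B and T cell and basal markers were near the shares over all probe sets, with medians of 0.06 and 0.08. The part of fat and endothelial cell content in the casein differences was not tested.

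Of 23 tested members of a list of genes that act on casein transcription 6 rose and 2 fell, where 10.5% of all probe sets were called higher and 10.8% lower, with a median log2 difference of 0.18 (-0.50 under bacterial control scaling, where 1 rose and 9 fell). Elf5, a transcription factor that drives alveolar cell fate, had 28175.9, 30300.6 and 38743.7 in LH transgenic pools, against 17485.4, 17691.3 and 8466.0 in wild type pools (log2 1.21, limma adjusted p 0.0111). The groups did not overlap, and the wild type spread came mostly from pool 3. Id2, a regulator needed for lobuloalveolar development, rose by 1.07 and was called in 5 of the 6 fits without 1 array. Under bacterial control scaling Id2 stood at 0.38 and was not called (limma adjusted p 0.163). Jak2 (0.63, adjusted p 0.0369), Cish, a STAT5 target that dampens cytokine signalling (0.54), Cebpb, a factor that binds casein promoters (0.50), and Stat5a (0.41, adjusted p 0.031) rose as well, but under bacterial control scaling Jak2 stood at -0.03, Cish at -0.13, Cebpb at -0.19 and Stat5a at -0.28. Stat5a was called in 0 of the 6 fits without 1 array, Jak2 in 1, Cebpb in 2 and Cish in 4. A second, dimmer Stat5a probe set had a difference of 0.77 (adjusted p 0.0111). Without wild type pool 1 there were 2 regulators that rose, and without wild type pool 3 there was 1.

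Stat5b, the close relative of Stat5a, had 1389.3, 882.2 and 973.8 in LH transgenic pools, against 439.9, 893.0 and 365.7 in wild type pools. Wild type pool 2 lay within the LH transgenic range, and the log2 difference of 0.91 did not pass the test (limma adjusted p 0.053). Cebpa (-0.98, adjusted p 0.00841), a factor that adipocytes also express, and Ets1 (-0.94, adjusted p 0.0112), which endothelial and lymphoid cells also express, fell. Prlr, the prolactin receptor gene, was not analysed here.

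Among genes that fold, phosphorylate and secrete caseins, 7 of the 22 tested rose and 0 fell by limma's adjusted p. Over all probe sets tested 10.5% were called higher and 10.8% lower. Of the 22 genes 1 was lower at an unadjusted p under 0.05. Their median log2 difference was 0.40 (-0.26 under bacterial control scaling, where 1 rose and 7 fell). The largest change was that of Fam20c, the Golgi kinase that phosphorylates caseins. It had 8961.6, 14871.0 and 9675.2 in LH transgenic pools, against 2128.0, 4184.9 and 2336.5 in wild type pools (log2 1.95, SE 0.27, limma adjusted p 0.00139). Within each group pool 2 was highest, as for the caseins, and the difference was 1.27 and called under bacterial control scaling. P4hb, a protein disulfide isomerase, rose by 1.25, Ssr1 of the translocon by 0.79, and Xbp1, the factor that expands the secretory apparatus, by 0.79. P4hb and Ssr1 were each called in 2 of the 6 fits without 1 array. Under bacterial control scaling P4hb stood at 0.58 (limma adjusted p 0.0509), Ssr1 at 0.12 and Xbp1 at 0.10, none of them called. With LH transgenic pool 1 left out 4 members rose, and with wild type pool 3 left out also 4.

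Other milk protein and alveolar genes rose in 10 of 18 tested members and 1 fell (Lpl, lipoprotein lipase, also made by adipocytes, -0.61), with a median log2 difference of 1.12 (0.44 under bacterial control scaling, where 8 rose and 1 fell). Over all probe sets tested 10.5% were called higher and 10.8% lower. Among the 18 tested members Fabp3 (3.04), Glycam1 (2.16), Cel, a milk lipase (1.91), and Folr1, the folate receptor (1.71), rose most. Wap, whey acidic protein, had 82895.6, 114865.9 and 87499.2 in LH transgenic pools, against 30510.5, 58156.7 and 16217.8 in wild type pools (log2 1.62, limma adjusted p 0.0134). Lalba, alpha-lactalbumin, had 52487.6, 56487.1 and 30536.5 in LH transgenic pools, against 20983.1, 32406.2 and 6962.4 in wild type pools, with LH transgenic pool 3 below wild type pool 2, and its difference of 1.41 did not pass the test (adjusted p 0.0607). In both genes wild type pool 2 was the highest and wild type pool 3 the lowest of the wild type arrays, the order also seen for Csn2, Csn1s2a, Csn1s2b and Csn3.

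Neighbours of the cluster were taken by gene order in the GRCm38.p6 assembly, 12 protein-coding genes on each side and 3 between Csn1s2b and Csn3. Of these 27 genes 12 had a probe set of their own and 4 passed the filter, all of them beyond Csn3. Jchain, the joining chain of secreted antibodies, had a log2 difference of -0.01 (limma adjusted p 0.993, 95% interval -0.62 to 0.61), Utp3 0.05 (adjusted p 0.803, -0.22 to 0.33) and Grsf1 0.32 (adjusted p 0.391, -0.23 to 0.88). Rufy3 had 679.3, 166.5 and 1340.0 in LH transgenic pools, against 98.7, 57.3 and 184.3 in wild type pools. Its mean was 728.6 in LH transgenic and 113.4 in wild type glands. The wild type mean lay below the filter, so Rufy3 was tested only because of its LH transgenic signals. LH transgenic pool 2 lay below wild type pool 3, and the call of Rufy3 (1.79, adjusted p 0.047) held in 1 of the 6 fits without 1 array.

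Sult1d1, a cytosolic sulfotransferase gene that lies on the other side of the cluster, before Csn1s1, was too dim for the filter and is named after its values were seen. It had 263.4, 276.6 and 185.1 in LH transgenic pools, against 23.5, 48.1 and 11.1 in wild type pools. The groups did not overlap, and in the fit without a filter its log2(signal + 80) difference was 1.58 (SE 0.21, limma adjusted p 0.00406). The other 7 dim neighbours had differences between -0.40 and 0.58 in that fit, none of them called.

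**Figure D4:**
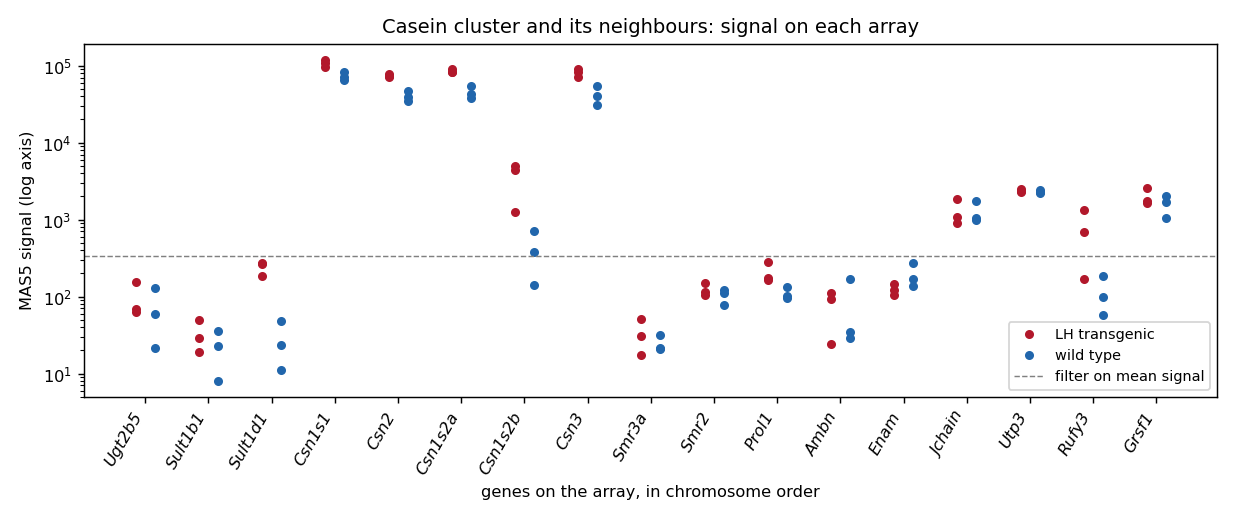
MAS5 signal (log axis) on each array for the caseins and those of their neighbours that have a probe set, in chromosome order, with LH transgenic arrays left of wild type arrays for each gene. The caseins, Sult1d1 and Prol1 have groups that do not overlap, while most neighbours lie below the filter on mean signal (dashed line, 336).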

How the data were processed

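RNA of 3 mice per array was labelled and hybridised to 6 Affymetrix arrays. The authors deposited 1 signal intensity per probe set on a linear scale. MAS5 made it, per the submitters' processing notes, whose version, detection calls and build are not given in the labels used here. Groups came from the labels, and pool numbers are names only. Caseins were the probe sets whose platform annotation names 1 gene. Members and gene lists were chosen with earlier results of these data known.

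Values were analysed as log2(signal + 80), 80 being the 20th percentile of the values, which understates changes of dim genes. The test took probe sets averaging 336 or more (the 40th percentile of means), 7453 of 12422 without the 66 controls. The test was limma (lmFit, eBayes with trend), 2-sided, adjusted by Benjamini-Hochberg and called under 0.05. It was checked on simulated data. Single values used exact permutation of the 6 arrays, and intervals of pair differences used 4 residual degrees of freedom. Lists are given as counts and medians, with the brightest probe set for each gene. Named genes were the caseins, up to 4 called genes of each list by size, the tested neighbours, the 3 nearest profiles per casein, and Wap, Lalba, Krt18, Krt8, Elf5, Stat5a, Stat5b, Jak2 and Prlr. Cish, Cebpb, Krt19, Lpl and the dim neighbours were named after their values were seen. Sequences came from RefSeq tables. The other settings were quantile and median scaling, scaling to 9 bacterial controls, a floor of 16.8 or a constant of 325.5, no filter or a mean of at least 933, other variance models, covariates, gene-level tests and leaving out each array. The fits ran in R 4.3.3 with limma 3.58.1 and statmod 1.5.0. Sequences and plots used Python 3.11.15 with matplotlib 3.10.9, numpy 2.4.6 and pandas 2.3.3.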

Additional observations from a re-analysis of the deposited data

How the results depend on the processing

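No paired analysis was possible because the labels give the arrays no shared numbers. Of 21 other settings Csn2 and Csn1s2a were called in 20, Csn1s2b and Csn3 in 19, and Csn1s1 in 16. Calls lost under bacterial control scaling, with differences of -0.13 for Csn1s1, 0.197 for Csn2, 0.258 for Csn1s2a and 0.305 for Csn3, came with a downward shift of all genes (3999 probe sets called, 3.5% of them higher against 49.2% as reported). Csn1s1 lost its call after quantile normalization (0.058), without a filter (0.56, adjusted p 0.0697 over 12422 probe sets), and with the muscle (0.622) or keratin level (0.563) as a covariate. Csn1s2b lost it with the muscle (1.63) or keratin level (2.10), and Csn3 with the muscle level (1.11). These covariates leave 3 residual degrees of freedom, and 698 and 980 probe sets were called with them, against 1586. Leaving out an array left 941 to 1641 called, the fewest without wild type pool 3 (941) and wild type pool 1 (1056). The cause was not tested.

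After quantile normalization Csn2 minus Csn1s2a turned to 0.02, and Csn1s1 minus luminal keratins to -0.166. Csn1s2a minus Csn3 ranged from -0.12 to 0.047 when an array was left out. With bacterial control scaling the list medians turned to -0.495 (regulators), -0.256 (folding and secretion), -0.448 (luminal), -0.606 (basal), -0.166 (macrophage), -0.562 (B and T cell) and -0.476 (neighbours). The B and T cell median, 0.058 as reported, ranged from -0.078 to 0.172 when an array was left out. The number of arrays limits the precision.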
